A study of Mus musculus with 6 samples.

Results

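The genes described here are 9 members of the transforming growth factor beta (TGF-beta) axis, taken from the deposited files by symbol: the ligands Tgfb1, Tgfb2 and Tgfb3, the receptors Tgfbr1 and Tgfbr2, the activator Thbs1, and the target genes Fn1, Acta2 and Tgfbi. They are 9 of the 55367 gene symbols in each file, and all 9 were among the 14862 genes tested, which had an FPKM (fragments per kilobase of gene length, scaled to library size) of at least 1 in at least 2 libraries. The rule names symbols and uses no measured value, but the genes were proposed with earlier results of these data known. RNA-seq was performed on DBA-positive cells of mouse kidney, with 2 libraries in each of 3 groups, all labelled Day115. The lectin DBA marks epithelium of the collecting duct, and cells released by enzymes were pulled out with it on magnetic beads. WT libraries came from mice of WT genotype given saline. ADPKD libraries came from Pkd1-/- mice given saline, and ADPKD+MMPP libraries from Pkd1-/- mice given mmpp (MMPP), an ultra-small melanin-like nanoparticle that carries manganese and polyethylene glycol and was injected into the vein. The knockout was made in male Pkd1 fl/fl;Cre/Esr1+ mice by giving tamoxifen to young animals, so Pkd1 was lost after the kidney had formed. Which cells the Cre driver covers is not given in the sources used here. The labels do not say whether the libraries of a group came from separate mice, so each p-value measures only the spread between these libraries, which may be technical.

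TGF-beta is secreted in a latent form, held in the matrix by latent-binding proteins and released by integrins, proteases or thrombospondin. The free ligand binds Tgfbr2, which recruits and phosphorylates Tgfbr1, and the receptor pair then phosphorylates Smad2 and Smad3, which enter the nucleus with Smad4. The pathway is best known in the kidney for inducing extracellular matrix genes and the contractile protein alpha smooth muscle actin in scarring tissue, and interstitial fibrosis accompanies cyst growth in polycystic kidney disease.

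Promoter letters are shown first, since the study is about CREB, a factor that binds the cAMP response element (CRE), and since SMAD proteins are known to bind a short CAGAC element. RefSeq promoters on GRCm38.p6, each 300 bases long with 250 bases before the start site and 50 after it, were matched for 6 of the 9 members and gave 7 promoters, 2 of them for Tgfbr1. Promoters of Tgfb3, Fn1 and Thbs1 were not analysed here. The full CRE TGACGTCA was in 0 of the 7 promoters, beside 1.79% of all 32851 promoters of this length, and the AP-1 site TGACTCA was also in 0 of 7, beside 5.2%. The short form of the CRE, TGACG on either strand, was in 1 of 7 beside 20.8%, and CAGAC, on either strand, was in 5 of 7 beside 49.6%. The short CRE is part of the full site, so a full site would have counted for both. These matches are letters in a window and not measured binding sites, and a motif without a match is only missing from these windows. Windows of 21 bases are given for the 5 promoters that held a motif, 2 for Tgfb2 and 1 for each of the others, with the motif in capitals, each written 5′ to 3′ on the strand of the gene:
Tgfb2, short CRE 72 bases before the start site, chr1:186706049-186706069, minus strand: tcctagcgCGTCActttgttg
Tgfb2, SMAD element 204 bases before the start site, chr1:186706181-186706201, minus strand: ggtgatcaCAGACagtgacta
Tgfbr1, SMAD element 203 bases before a start site inside the gene, chr4:47386005-47386025, plus strand: gaactcagCAGACagccccac
Tgfbr2, SMAD element 160 bases before the start site, chr9:116175511-116175531, minus strand: ttggagccCAGACttggcggg
Tgfbi, SMAD element 85 bases before the start site, chr13:56609493-56609513, plus strand: gtggcgtgGTCTGggaggcgc
Acta2, SMAD element 235 bases before the start site, chr19:34255596-34255616, minus strand: agcccagtGTCTGggcatttg
Tgfb2 and Tgfbi each held a further SMAD element, 221 and 239 bases before their start sites, and no motif searched was found in the promoter of Tgfb1 or in the other promoter of Tgfbr1.

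The libraries were not alike in how their values were made. Low FPKM values lay on steps of 1 read per gene length, from which depths were recovered, at 30.5 to 33.2 M reads in the WT and ADPKD libraries and 10.9 to 11.8 M reads in the ADPKD+MMPP libraries. Odd read numbers made up 35.8% to 37.9% of the low values in WT and ADPKD and 7.46% to 7.94% in ADPKD+MMPP, where 19275 to 19509 symbols were above 0 against 25260 to 25498 in the other libraries. These features belong to 1 group only, so they and the treatment cannot be told apart in any comparison with ADPKD+MMPP. Pkd1, the deleted gene, was at 17.7 and 17.2 FPKM in WT, 7.64 and 8.91 FPKM in ADPKD, and 4.34 and 3.99 FPKM in ADPKD+MMPP, lower in each library of the Pkd1-/- genotype than in WT. The value covers the whole gene, so the deleted exons cannot be read on their own. Aqp2, the water channel of collecting duct principal cells, was at 677 FPKM or more in each library, whereas the vasopressin receptor gene Avpr2 was at or near 0 in all 6. Defining genes of other kidney cells were present too, such as the endothelial gene Pecam1 at 146 and 126 FPKM in WT.

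The comparison of ADPKD with WT addresses which genes changed in these cells when Pkd1 was lost. A gene was called when its fold change on log2(FPKM + 1) was at least 1.5 and its unadjusted limma P was under 0.05, the thresholds of the study's methods, and adjusted p-values below are Benjamini-Hochberg values over all 14862 genes. Of the 9 members, 5 were called higher in ADPKD (Tgfb2, Tgfbr1, Thbs1, Fn1 and Tgfbi), 0 were called lower, and 4 were not called. Over all genes tested, 26.7% were called, 14.2% higher and 12.5% lower. Members had a median log2 fold change of 1.08, beside 0.03 over all genes. In these bulk samples, a larger share of cells of another type and more RNA per cell cannot be told apart. The comparison of ADPKD+MMPP with ADPKD holds the treatment together with the differences between libraries given above, so it does not show what the treatment alone changed. Here 2 members were called higher (Tgfb3 and Acta2), 3 were called lower (Tgfb2, Fn1 and Tgfbi) and 4 were not called, in a background where 70.9% of all genes were called, 27.9% higher and 43.0% lower. The 5 of 9 members called did not exceed this background. Against WT, the ADPKD+MMPP libraries had 4 members called higher and 3 called lower, beside 73.9% of all genes called, 30.1% higher and 43.8% lower. The 3 comparisons share libraries, so their values are set side by side and not counted as separate evidence.

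**Figure D1:**
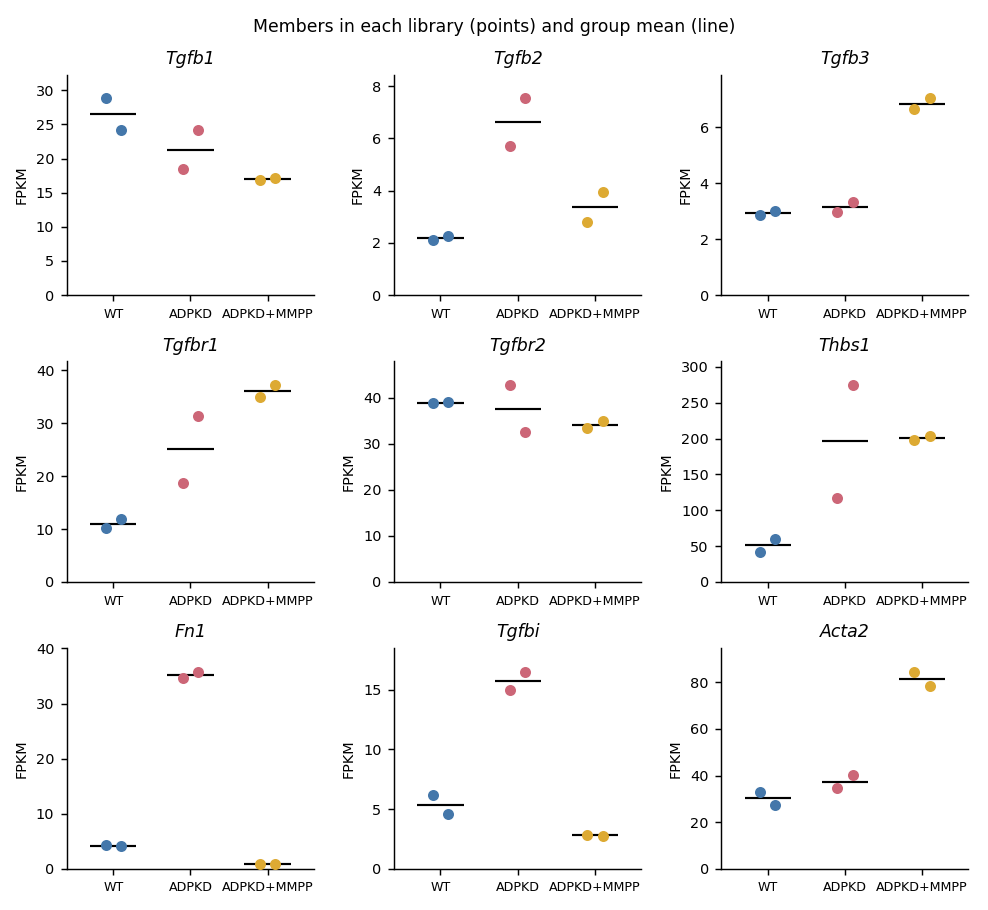
FPKM of each of the 9 members (y axis, from 0, one scale per gene) in WT, ADPKD and ADPKD+MMPP (x axis), with 1 point per library and a line at the mean of the 2 libraries. Fn1 and Tgfbi peaked in ADPKD, Tgfb3 and Acta2 were highest in ADPKD+MMPP, and the ADPKD libraries lay far apart for Thbs1 (117 and 275 FPKM).

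Among the ligands, Tgfb2 was the one called higher in ADPKD. Tgfb1, the most studied isoform and the one most tied to scarring, was at 28.9 and 24.2 FPKM in WT, 18.4 and 24.1 FPKM in ADPKD, and 16.8 and 17.2 FPKM in ADPKD+MMPP. The ADPKD libraries lay below both WT libraries, by a margin of 24.1 against 24.2 FPKM. The change from WT to ADPKD was -0.31 on the log2 scale (SE 0.17, adjusted p = 0.226) and that from ADPKD to ADPKD+MMPP was -0.29 (adjusted p = 0.164), neither of which was called. Between WT and ADPKD+MMPP the log2 fold change was -0.61 (adjusted p = 0.0184), and this call was lost without WT replicate 1 (-0.48) or without either ADPKD+MMPP library. When genes were set against others of like structure, as described below, the value was larger and called (-1.75, adjusted p = 0.000361).

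Tgfb2, the isoform whose loss in mice disturbs the development of several organs, including the kidney, was at 2.09 and 2.28 FPKM in WT, 5.70 and 7.54 FPKM in ADPKD, and 2.81 and 3.96 FPKM in ADPKD+MMPP. All libraries of 1 group lay apart from those of the others, with ADPKD highest and WT lowest. It was 3.03-fold higher in ADPKD than in WT by the ratio of mean FPKM, with a log2 fold change of 1.25 (SE 0.19, adjusted p = 0.00880), and it was called in each run that left out 1 library. From ADPKD to ADPKD+MMPP it fell by 0.80 on the log2 scale (SE 0.19, adjusted p = 0.00984). That fall was not called after quantile normalization (-0.21), and the sign turned when genes were set against others of like structure (0.39), as described below.

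Tgfb3, an isoform known for its part in palate closure and in scarless repair, was at 2.86 and 3.01 FPKM in WT, 2.97 and 3.32 FPKM in ADPKD, and 6.66 and 7.04 FPKM in ADPKD+MMPP. WT and ADPKD overlapped, with a log2 difference of 0.07 (95% interval -0.22 to 0.36), while both ADPKD+MMPP libraries lay above all others. Its log2 fold change between ADPKD+MMPP and ADPKD was 0.92 (SE 0.12, adjusted p = 0.000770), and the sign turned after centring by gene structure (-0.23, not called). FPKM is per length, here that of the merged exons of all transcripts (5042 bases for Tgfb1, 5791 for Tgfb2 and 3383 for Tgfb3). On this scale Tgfb1 was above Tgfb2 and Tgfb3 in all 6 libraries. Of the latter pair, Tgfb3 was higher in each WT library and Tgfb2 in each ADPKD library. The length of the transcripts present was not measured, so the order in WT, where the pair was close, holds for the deposited values only. In ADPKD+MMPP, where Tgfb3 was higher as deposited, genes of like structure had median log2 changes from ADPKD of -1.02 for Tgfb2 and 1.10 for Tgfb3, so the order of the pair there is not settled.

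The receptors moved differently from each other. Tgfbr1, the type I receptor kinase that phosphorylates Smad2 and Smad3, was at 10.3 and 11.8 FPKM in WT, 18.8 and 31.4 FPKM in ADPKD, and 34.9 and 37.2 FPKM in ADPKD+MMPP. The groups did not overlap, and WT was lowest. The log2 fold change from WT to ADPKD was 1.08 (SE 0.24, adjusted p = 0.0270), and it was 0.72 without ADPKD replicate 2 and 1.43 without ADPKD replicate 1, called in both. From ADPKD to ADPKD+MMPP it was 0.55 (95% interval -0.06 to 1.16, adjusted p = 0.0854) and not called, but it was called at 0.90 without ADPKD replicate 2 (adjusted p = 0.00349). Tgfbr2, the type II receptor that binds the ligand first, was at 38.9 and 39.1 FPKM in WT, 42.8 and 32.6 FPKM in ADPKD, and 33.4 and 34.9 FPKM in ADPKD+MMPP. It was not called in any of the 3 comparisons, with log2 intervals of -0.45 to 0.33 for ADPKD against WT and -0.52 to 0.27 for ADPKD+MMPP against ADPKD. Its sign turned from -0.06 to 0.13 without ADPKD replicate 2 in the first of these and from -0.13 to 0.07 without ADPKD replicate 1 in the second.

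Thbs1 encodes thrombospondin 1, a secreted protein that can release TGF-beta from its latent complex and is also stored in platelets. It was at 42.2 and 59.4 FPKM in WT, 117 and 275 FPKM in ADPKD, and 198 and 203 FPKM in ADPKD+MMPP. Both ADPKD libraries lay above both WT libraries, but the ADPKD+MMPP libraries lay between the ADPKD ones. The log2 fold change from WT to ADPKD was 1.82 (SE 0.40, adjusted p = 0.0252). It depended in size on the ADPKD libraries, being 1.21 without ADPKD replicate 2 and 2.43 without ADPKD replicate 1, and was called in both. From ADPKD to ADPKD+MMPP the log2 fold change was 0.16 (95% interval -0.84 to 1.16, adjusted p = 0.731), and it was -0.45 without ADPKD replicate 1 and 0.77, which was called, without ADPKD replicate 2. It was also -0.15 when libraries were scaled to a common sum. The platelet gene Pf4 had a like order within ADPKD, at 10.1 and 23.5 FPKM, beside 0.680 and 0.179 FPKM in WT and 12.2 and 14.7 FPKM in ADPKD+MMPP. In the platelet list of 6 genes, 4 reached 1 FPKM in some library, the summed level was 3.38 to 3.92 FPKM in WT, 12.5 to 31.2 FPKM in ADPKD and 18.4 to 26.3 FPKM in ADPKD+MMPP, and Gp1bb was at 0 in all 6 libraries. Of its 3 genes tested, 1 was called higher in ADPKD against WT. Ppbp was at 0.782 and 5.47 FPKM in ADPKD against 0.302 and 0.119 FPKM in WT, but Itga2b lay between 1.29 and 1.75 FPKM in all 6 libraries. Gp9 had lower values in ADPKD (0.240 and 0.496 FPKM, beside 0.854 and 1.91 FPKM in WT) and a listed value of 0 in either ADPKD+MMPP library. The part of platelets in the Thbs1 values was not tested.

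Fn1 and Tgfbi, which encode matrix proteins, followed the same order of groups. Fn1 encodes fibronectin, a glycoprotein of the provisional matrix that epithelial cells and fibroblasts lay down. It was at 4.30 and 4.06 FPKM in WT, 34.6 and 35.7 FPKM in ADPKD, and 0.942 and 0.816 FPKM in ADPKD+MMPP. The difference between groups far exceeded that between libraries of a group: mean FPKM was 8.42-fold higher in ADPKD than in WT, with a log2 fold change of 2.81 (SE 0.11, adjusted p = 0.000831). From ADPKD to ADPKD+MMPP it fell by 4.27 on the log2 scale (SE 0.11, adjusted p = 1.95e-05), to a level of about 130 and 104 reads per library. That level was below WT (-1.46, adjusted p = 0.000108), a call lost after centring by gene structure (-0.11). The fall from ADPKD was called in every alternative run, from -2.89 to -5.31 on the log2 scale.

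Tgfbi, named for its induction by TGF-beta, encodes a secreted protein that binds collagen and integrins. Its level was 6.16 and 4.57 FPKM in WT, 14.9 and 16.5 FPKM in ADPKD, and 2.83 and 2.77 FPKM in ADPKD+MMPP, with no overlap between groups. The log2 fold change was 1.40 from WT to ADPKD (SE 0.16, adjusted p = 0.00459) and -2.14 from ADPKD to ADPKD+MMPP (SE 0.16, adjusted p = 0.000106), where centring by gene structure ended the call (-0.41). ADPKD+MMPP was also below WT, by -0.73 (adjusted p = 0.00637), a call lost without WT replicate 1 (-0.55) and after quantile normalization (-0.13), and turned by centring (0.94).

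Acta2, which encodes the alpha smooth muscle actin of vessel walls and myofibroblasts, did not follow the other targets. It was at 33.0 and 27.5 FPKM in WT, 34.5 and 40.0 FPKM in ADPKD, and 84.5 and 78.3 FPKM in ADPKD+MMPP. The ADPKD libraries were above those of WT, by a log2 fold change of 0.30 (SE 0.15, adjusted p = 0.196) that was not called. The change from ADPKD to ADPKD+MMPP was 1.11 (SE 0.15, adjusted p = 0.000988). Other smooth muscle genes differed among themselves. Myh11, smooth muscle myosin, was at 12.3 and 11.3 FPKM in WT, 4.13 and 2.79 FPKM in ADPKD, and 0.914 and 0.989 FPKM in ADPKD+MMPP, and Tagln lay between 0.377 and 1.07 FPKM in all 6 libraries. Of the smooth muscle and pericyte list of 9 genes, 8 reached 1 FPKM in some library, and Myocd was at 0 in both ADPKD+MMPP libraries. Its summed level was 113 to 128 FPKM in WT, 46.2 to 59.1 FPKM in ADPKD and 74.8 to 75.2 FPKM in ADPKD+MMPP, and of the 6 genes tested 0 were called higher and 4 lower in ADPKD against WT, and 3 higher and 2 lower between ADPKD+MMPP and ADPKD. Like Acta2, Cnn1 (0.508 and 0.581 FPKM in ADPKD, 2.41 and 1.67 FPKM in ADPKD+MMPP), Lmod1 (0.582 and 0.766, 3.05 and 3.62 FPKM) and Rgs5 (29.1 and 24.0, 56.7 and 58.1 FPKM) had both ADPKD+MMPP libraries above both ADPKD libraries. The log2 changes of Lmod1 (1.37) and Rgs5 (1.09) were near the medians of genes of like structure (1.10 and 1.06), as described below. For Acta2 that median was 0.37. The part of smooth muscle cells in the Acta2 values was not tested. The actin genes are alike in coding sequence, and how reads that fit several genes were counted is not given in the sources used here, so the Acta2 level is uncertain to that extent. Actg2, the other smooth muscle actin, was at 0.962 FPKM or less.

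**Figure D2:**
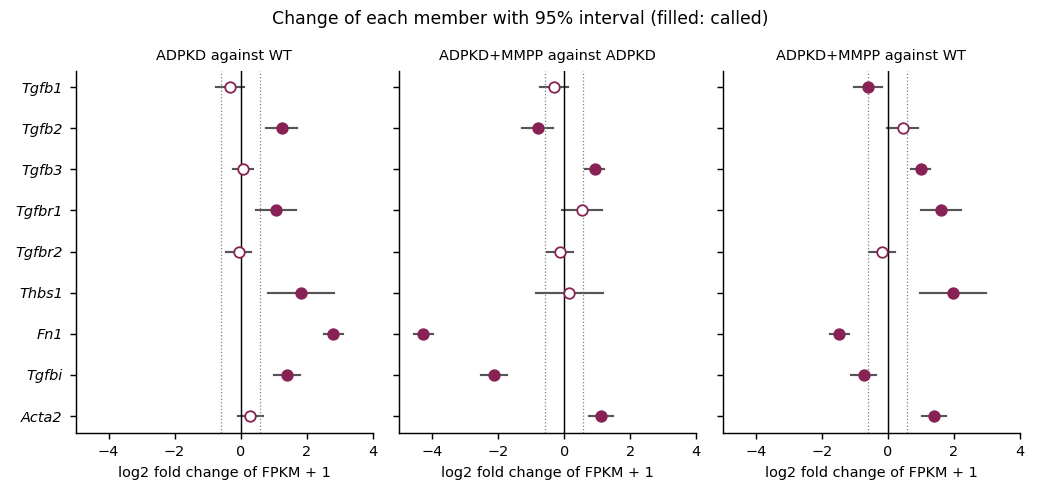
Log2 fold change of FPKM + 1 (x axis) of each of the 9 members (y axis) in the 3 comparisons, with the 95% interval of the limma fit. Filled points were called, and dotted lines mark a fold change of 1.5 in either direction. The 5 members called in ADPKD against WT all lie to the right, while Fn1, at -4.27, lies farthest to the left in ADPKD+MMPP against ADPKD.

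The changes seen in ADPKD+MMPP were related to the structure of the genes. The members lie on 9 loci of 8 chromosomes (GRCm38, GENCODE vM21 gene bounds), and every value covers the merged exons of the gene. The ligand genes are Tgfb1 (chr7:25687002-25705077, plus strand), Tgfb2 (chr1:186622792-186705989, minus strand) and Tgfb3 (chr12:86056745-86079041, minus strand). The receptor genes are Tgfbr1 (chr4:47353222-47414931, plus strand) and Tgfbr2 (chr9:116084293-116175360, minus strand), and Thbs1 is at chr2:118111876-118127133 (plus strand). The target genes are Fn1 (chr1:71585520-71653200, minus strand), Acta2 (chr19:34241090-34255590, minus strand) and Tgfbi (chr13:56609523-56639562, plus strand). Structure was measured as the percentage of exon bases covered by a single transcript of the annotation (GENCODE vM21). Among the members this was 28.0% for Tgfbi and 31.0% for Fn1, which has 17 transcripts, 38.3% for Tgfb2, 52.2% for Tgfbr1, 58.7% for Tgfbr2, 69.7% for Acta2, 84.6% for Tgfb1 and 92.9% for Thbs1 and 100% for Tgfb3. Across 12375 protein-coding genes, Spearman's rho between this share and the log2 fold change was 0.0451 for ADPKD against WT, 0.649 for ADPKD+MMPP against ADPKD and 0.599 for ADPKD+MMPP against WT, as a description over genes of the same libraries. Genes of the same range of shares as Tgfb3 had a median log2 fold change of 1.10 between ADPKD+MMPP and ADPKD, those like Tgfbi had -1.31 and those like Fn1 had -1.06. To set each gene against others of like structure, the median of its bin was subtracted in every library (20 bins were asked for, and 19 formed, since all genes at 100% fell in 1). After this centring 5 members were again called higher in ADPKD against WT, and they were the same 5 genes, beside 27.3% of the protein-coding genes called in either direction. Between ADPKD+MMPP and ADPKD, the centred values were -2.89 for Fn1 and 0.90 for Acta2, both called as before, and -0.41 for Tgfbi, 0.39 for Tgfb2 and -0.23 for Tgfb3, none of which was called. Tgfb1 (-1.41) and Tgfbr1 (1.20), not called there as deposited, were called after centring. Between ADPKD+MMPP and WT, Tgfbi was called both as deposited and, with the other sign, after centring. Centring called 58.3% of the protein-coding genes between ADPKD+MMPP and ADPKD. Whether the relation to structure comes from how these libraries were made or counted was not tested, and it cannot be told apart from the treatment.

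**Figure D3:**
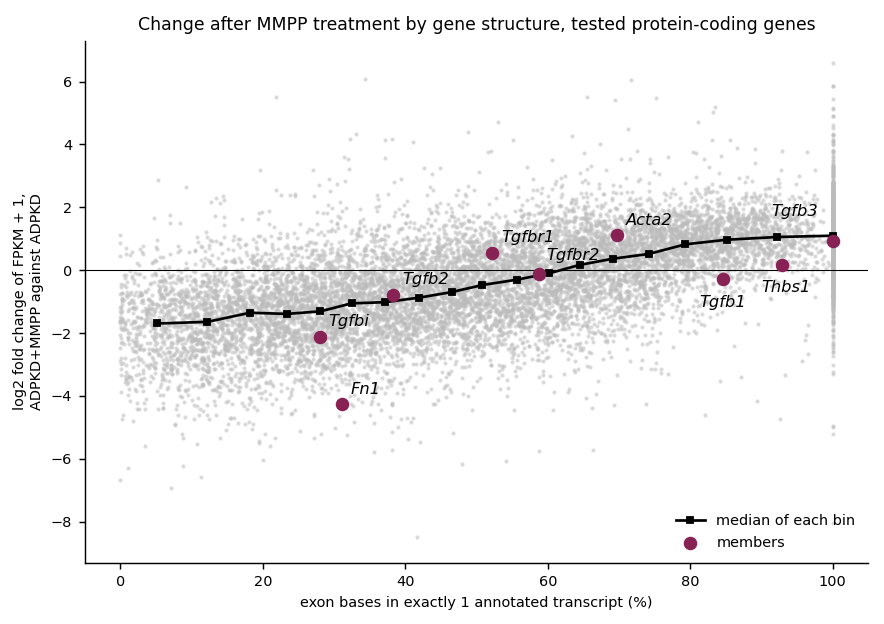
Log2 fold change of FPKM + 1 between ADPKD+MMPP and ADPKD (y axis) against the percentage of exon bases covered by a single annotated transcript (x axis), for 12375 protein-coding genes (grey), the median of each bin (black line) and the members (large points). The line climbs with the share, Tgfb2, Tgfbr2 and Tgfb3 lie near it, and Fn1 lies far below it.

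The other genes of the pathway were described from a list of 82 genes, of which 79 were tested. In ADPKD against WT, 30 were called higher and 13 lower, which is 54.4% of those tested beside 26.7% of all genes, and their median log2 fold change was 0.34. Between ADPKD+MMPP and ADPKD, 13 were called higher and 45 lower, 73.4% beside 70.9% of all genes, with a median of -0.86 beside -0.36 over all genes. Across the scalings run, between 7 and 18 genes of the list were called higher and between 42 and 49 lower in that comparison, and 11 and 39 after centring by gene structure. For all genes the split turned: 39.3% of the called genes were higher as deposited, 54.0% after quantile normalization and 57.9% after centring.

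The fibrillar matrix and crosslinking genes had the highest median in ADPKD against WT. Of 15 tested, 11 were called higher and 2 lower, with a median log2 fold change of 1.11. Col1a1, a chain of type I collagen, was at 0.364 and 0.389 FPKM in WT, 32.3 and 33.4 FPKM in ADPKD, and 61.6 and 70.1 FPKM in ADPKD+MMPP, and Col3a1, type III collagen, was at 0.240 and 0.382, 32.2 and 32.6, and 65.3 and 65.1 FPKM. Their log2 fold changes in ADPKD were 4.62 and 4.67, with an adjusted p of 0.000241 for each. Timp1, an inhibitor of matrix metalloproteinases, had the highest value of the list on log2(FPKM + 1), at 0.516 and 0.982 FPKM in WT against 32.9 and 70.5 FPKM in ADPKD (log2 fold change 4.83, adjusted p = 0.00302), and it was at 16.2 and 11.6 FPKM in ADPKD+MMPP. By the ratio of mean FPKM, Col3a1 (104) and Col1a1 (87.3) were above Timp1 (69.0). Between ADPKD+MMPP and ADPKD, 3 matrix genes were called higher and 6 lower, or 2 and 7 after centring, with a median of 0.11 that was -0.68 after centring. The collagens Col1a1 and Col3a1 were called higher there (0.98 and 0.99), opposite to Fn1, and after centring their values were -0.10 and 0.57, neither called. Timp1 was called lower there as deposited (-1.74), but its value was 0.37 and not called after centring.

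Of the 6 SMADs and adaptors, 0 were called higher and 1, Smad6, was called lower in ADPKD against WT. Smad2 and Smad3 are the receptor-activated SMADs, Smad4 is their common partner and Smad7 is an inhibitor induced by the pathway. Smad2 was at 6.63 and 6.60 FPKM in WT, 8.09 and 9.24 FPKM in ADPKD, and 6.52 and 5.03 FPKM in ADPKD+MMPP. Smad3 was at 23.7 and 22.7, 26.5 and 59.5, and 47.2 and 49.2 FPKM in the same order, so that the ADPKD libraries lay on either side of the ADPKD+MMPP ones. Neither was called in ADPKD against WT (log2 fold changes 0.34 and 0.75), although Smad3 was called without ADPKD replicate 1 (1.32). Smad4 had its lowest level in WT and its highest in ADPKD+MMPP, at 22.7 and 22.5, 25.5 and 29.4, and 32.6 and 31.3 FPKM, and was not called in any of the 3 comparisons as deposited, but median ratio scaling (0.63) and centring (1.35) called it higher in ADPKD+MMPP against WT, and centring did so against ADPKD as well (1.10, adjusted p = 0.000659). Centring also called Smad2 lower in ADPKD+MMPP against ADPKD (-0.94), and Smad3, called higher against WT as deposited (1.02), was not called after it (-0.12). Smad7 lay between 44.2 and 51.9 FPKM in all 6 libraries.

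Among the 23 target genes tested, 7 were called higher and 2 lower in ADPKD against WT, and 5 higher and 14 lower between ADPKD+MMPP and ADPKD, or 1 and 11 after centring. Ccn2, connective tissue growth factor, was at 72.8 and 85.2 FPKM in WT, 64.1 and 128 FPKM in ADPKD, and 20.3 and 19.1 FPKM in ADPKD+MMPP, not called in ADPKD against WT (0.20; 0.69, called, without ADPKD replicate 1 and -0.29 without ADPKD replicate 2) and called lower in ADPKD+MMPP (-2.15, adjusted p = 0.00147), a call lost after centring (-0.42). Klf10, a factor induced early by TGF-beta, was at 49.0 and 52.9 FPKM in ADPKD and 0.243 and 0.351 FPKM in ADPKD+MMPP, the largest fall of the list at -5.32 (adjusted p = 1.95e-05). Ccn1, a relative of Ccn2, was at 484 and 350 FPKM in ADPKD and 800 and 851 FPKM in ADPKD+MMPP and was called higher (adjusted p = 0.00397), but its value was -0.16 and not called after centring.

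Genes of the latent complex and its activation were split in ADPKD against WT, with 6 called higher and 4 lower of 17, and 2 were called higher and 13 lower between ADPKD+MMPP and ADPKD, or 4 and 9 after centring. Plat, tissue plasminogen activator, had the lowest value of the list in ADPKD, at 861 and 747 FPKM in WT against 183 and 135 FPKM in ADPKD (-2.34, adjusted p = 0.00291). Ltbp4, which tethers latent TGF-beta in the matrix, was at 52.0 and 34.4 FPKM in ADPKD and 0.341 and 0.199 FPKM in ADPKD+MMPP (-5.09, adjusted p = 3.38e-05). Lrrc32, which anchors latent TGF-beta at the cell surface, was at 60.3 and 112 FPKM in ADPKD and 2.17 and 1.02 FPKM in ADPKD+MMPP (-5.04, adjusted p = 9.70e-05). Itgb8, the beta chain of an integrin that activates TGF-beta, went the other way, from 3.04 and 2.72 FPKM to 15.5 and 15.4 FPKM (2.08, adjusted p = 0.000183). The falls of Klf10, Ltbp4 and Lrrc32 and the rise of Itgb8 were called after centring too.

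The co-receptors and other type I receptors were lower in ADPKD, with 3 of 4 called lower and 0 higher. Eng, the co-receptor endoglin, was at 377 and 335 FPKM in WT, 112 and 87.4 FPKM in ADPKD, and 2.91 and 2.81 FPKM in ADPKD+MMPP. Acvrl1, a type I receptor known from endothelial cells, was at 51.4 and 47.6, 20.1 and 11.1, and 1.79 and 1.63 FPKM. Between ADPKD+MMPP and ADPKD the log2 fold change of Eng was -4.70, and -2.91 after centring. That of Acvrl1 was -2.56, and only -0.62 after centring (adjusted p = 0.0614). Both were called either way. The summed level of the 8 endothelial markers, such as Pecam1 and Cdh5, moved the same way, from 862 to 1029 FPKM in WT to 552 to 554 FPKM in ADPKD and 338 to 368 FPKM in ADPKD+MMPP, with 7 of 8 called lower and 1 higher in ADPKD against WT. Plvap, an endothelial gene of the same list, was the one called higher. At 208 and 236 FPKM it made up most of the sum in ADPKD+MMPP, where 4 of the 8 markers were called lower against ADPKD and 0 higher. Among the SMAD feedback genes and inhibitors, 7 of 15 were called higher and 1 lower in ADPKD against WT, and 2 higher and 9 lower between ADPKD+MMPP and ADPKD, or 3 and 8 after centring. Fst, follistatin, an inhibitor of activins, was at 0.185 and 0.0563 FPKM in WT, 2.60 and 1.69 FPKM in ADPKD, and 6.42 and 6.63 FPKM in ADPKD+MMPP.

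**Figure D4:**
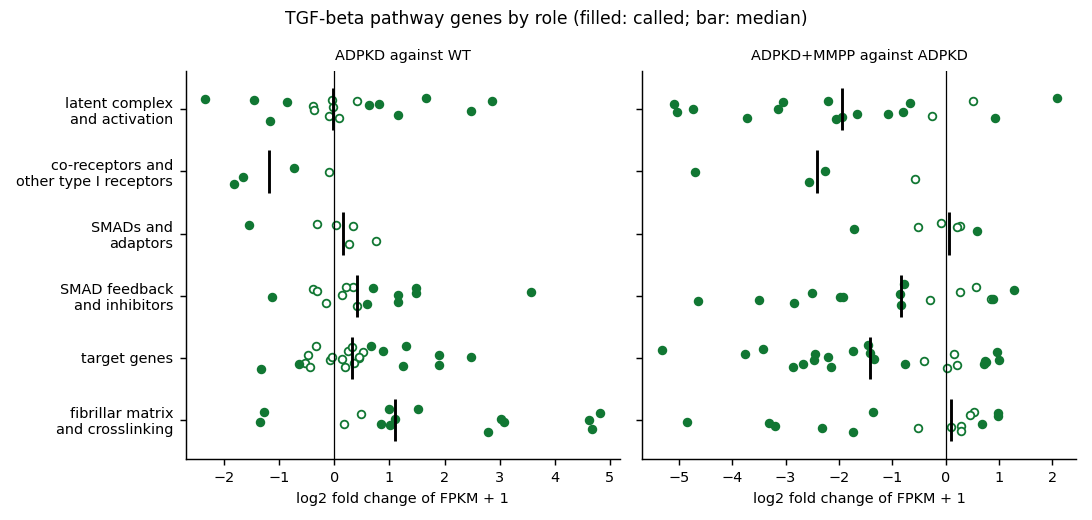
Log2 fold change of FPKM + 1 (x axis) of the tested genes of the TGF-beta pathway list, grouped by role (y axis), in ADPKD against WT (left) and ADPKD+MMPP against ADPKD (right). Each point is a gene, filled where called, and the bar is the median of the role. The matrix genes have the highest median at left (1.11), and the co-receptors lie below 0 in both panels.

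Markers of other cell types also differed between the groups, not always in the direction of the members. The macrophage and leukocyte list, of 9 genes with 8 at 1 FPKM or more in some library, had a summed level of 68.6 to 69.3 FPKM in WT, 527 to 636 FPKM in ADPKD and 1160 to 1213 FPKM in ADPKD+MMPP, and 8 of its 8 tested genes were called higher in ADPKD. Its genes did not move as one in ADPKD+MMPP, where Lyz2 was at 568 and 565 FPKM against 188 and 224 FPKM in ADPKD, but Csf1r, the macrophage growth factor receptor, was at 0.381 and 0.190 FPKM against 17.0 and 25.6 FPKM. The fibroblast list of 9 genes had a sum of 86.5 to 109 FPKM in WT, 158 to 175 FPKM in ADPKD and 169 to 180 FPKM in ADPKD+MMPP. In ADPKD against WT, 6 of its genes were called higher and 2 lower, and Col1a1, Col1a2, Col3a1, Lum and Dcn stand in the pathway list as well. Pdgfrb, a fibroblast and pericyte receptor, was at 91.3 and 65.6 FPKM in WT, 38.9 and 31.4 FPKM in ADPKD, and 1.05 and 0.837 FPKM in ADPKD+MMPP. The summed principal cell markers lay at 2585 to 3332 FPKM in WT, 2079 to 3843 FPKM in ADPKD and 6930 to 6961 FPKM in ADPKD+MMPP, and those of the proximal tubule at 298 to 486, 218 to 368 and 1677 to 1734 FPKM. The principal cell sum was mostly Aqp2, Krt18 and Hsd11b2 in ADPKD+MMPP, and of the 9 genes tested 5 were called higher and 3 lower against ADPKD, with Cdh16 at 39.7 and 34.7 FPKM against 694 and 280 FPKM. Between ADPKD+MMPP and ADPKD the macrophage sum was higher and the fibroblast sums overlapped, but neither list moved as one. Of the 8 macrophage genes tested, 4 were called higher and 4 lower, with a median log2 fold change of 0.03. Of the 9 fibroblast genes, 3 were called higher and 3 lower. The sums were not centred by gene structure. The part of macrophages, fibroblasts and the other cell types in the values of Fn1, Tgfbi, Thbs1, Acta2 and the collagens was not tested.

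**Figure D5:**
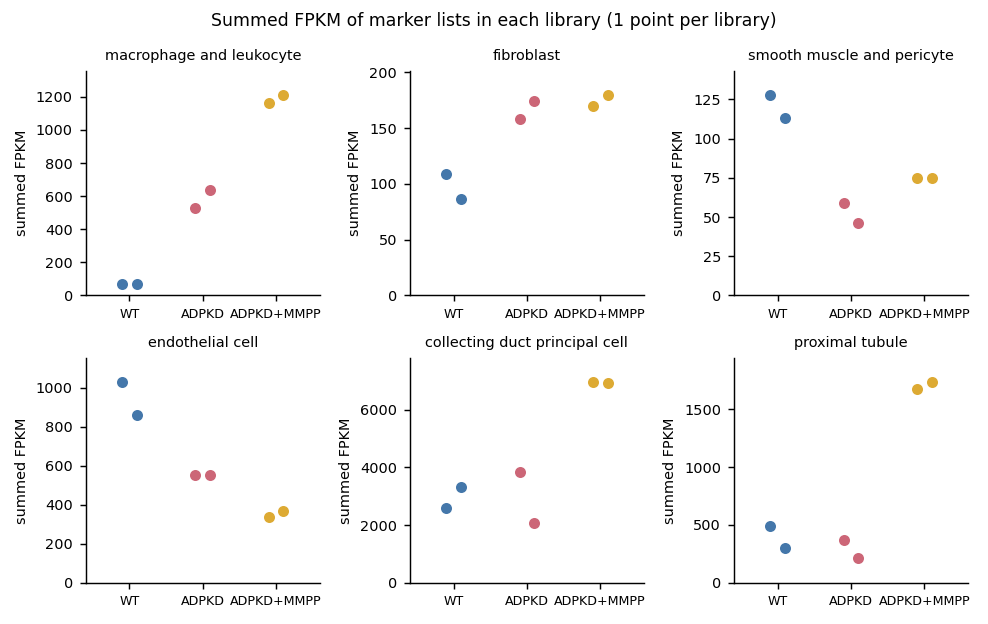
Summed FPKM (y axis, from 0, one scale per list) of 6 marker lists in each library of WT, ADPKD and ADPKD+MMPP (x axis), with 1 point per library. The macrophage sum climbs from 68.6 in the lowest library to 1213 in the highest, the endothelial sum falls, and the principal cell and proximal tubule sums are highest in ADPKD+MMPP, though 3 principal cell genes were called lower there. Against ADPKD, 4 macrophage genes were called higher and 4 lower in ADPKD+MMPP, and 4 of 8 endothelial genes were called lower and 0 higher.

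The pathway and marker genes whose levels followed the members most closely were found by Pearson's r of log2(FPKM + 1) over the 6 libraries, among 159 genes. Fn1 and Tgfbi had the same pair, Postn (r = 0.977 and 0.976), which encodes the matrix protein periostin, and Sphk1 (0.966 and 0.965), a sphingosine kinase. Tgfb2 was closest to Dcn (0.971), Tgfbr1 to Fstl3 (0.994) and Thbs1 to the collagen gene Col5a1 (0.983). Tgfb3 was closest to Thbs2 (0.987) and Itgb8 (0.987), Tgfb1 to Smurf2 (0.969), Acta2 to Ldlrad4 (0.976) and Tgfbr2 to the principal cell gene Fxyd4 (0.940). These are descriptions over 6 libraries of 3 groups, which share the group differences in depth given above.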

How the data were processed

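Gene expression in DBA-positive cells was read by sequencing in 6 libraries. The authors aligned reads to GRCm38/mm10 with HISAT2 2.1.0, counted them with featureCounts 1.6.0 and deposited 1 table of FPKM per gene and library. Their own testing ran DESeq2 on counts, which are not used here. The annotation release and the making of FPKM are not given in the sources used here.

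All 6 libraries entered 1 limma model (version 3.58.1, R 4.3.3) of log2(FPKM + 1). The model takes 1 spread per gene for all 3 groups, so each SE and p-value of ADPKD against WT also draws on the ADPKD+MMPP libraries. Spreads were not always alike: for Thbs1 the SD was 12.2 FPKM in WT, 111 FPKM in ADPKD and 3.64 FPKM in ADPKD+MMPP. When tested on simulated data of ADPKD against WT with 14862 genes, the limma step called 100% of the 200 genes given a log2 change of 2 and 1.39% of the 14662 others. In that simulation each gene had the same spread in all 3 groups, as the model assumes. The rates therefore do not give the error rate in these libraries, whose groups differ in spread. GENCODE vM21 matched 53186 of 55367 symbols and gave exon lengths, with which 97.4% to 99.0% of low values fell within 0.05 of whole reads. Depth limits low values, and 2 libraries a group limit the precision of every mean.

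The members and lists were chosen with earlier results of these data known. Named pathway genes were Smad2, Smad3, Smad4, Smad7, Ccn2, Col1a1 and 1 gene that is not reported here, and the 3 highest and 3 lowest called changes in ADPKD against WT and in ADPKD+MMPP against ADPKD, among genes whose libraries do not overlap and with a mean of at least 5 FPKM in a group. Ltbp2 counts under 2 roles. Genes of like pattern are the 2 with the highest r for each member, of which the text gives 1 or 2. Marker genes named in the text, and Pkd1, illustrate their lists and were chosen after their values were seen. Other pseudocounts, filters, scalings, thresholds and fits were tried, as were centring by gene structure, a replicate block and leaving out each library. Replicates of a group differed by more than sampling noise in each group. The chi-square of their read pairs averaged 13.5 per gene (WT), 51.2 (ADPKD) and 2.20 (ADPKD+MMPP), where sampling alone gives 1. Read pairs were taken as reads divided by 2, and genes with at least 20 pairs over both libraries were used. The value grows with depth, and depth and the share of odd read numbers differed in ADPKD+MMPP, so its value is not on a like scale with the others.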

Additional observations from a re-analysis of the deposited data

How the results depend on the processing

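In ADPKD against WT, 5 members were called in every alternative, and the values of the non-called Tgfb3 and Tgfbr2 turned sign: Tgfb3 was -0.070 after centring by gene structure, and Tgfbr2 ranged from -0.25 to 0.13 when 1 library was left out. At a fold change of 2, 1951 of all 14862 genes were called in ADPKD against WT. At that threshold 3 members were called between ADPKD+MMPP and ADPKD, beside 7858 of 14862 genes. Between ADPKD+MMPP and WT 4 members were called, beside 8405 of 14862 genes. Neither of these 2 member counts exceeded the share over all genes. Between ADPKD+MMPP and ADPKD, centring turned Tgfb2 (0.39), Tgfb3 (-0.23), Tgfbr2 (0.22) and Thbs1 (-0.91). There Tgfbr2 was 0.088 with median ratio scaling, Thbs1 was -0.15 with a common sum and -0.13 after quantile normalization, and leaving out 1 library gave -0.32 to 0.066 for Tgfbr2 and -0.45 to 0.77 for Thbs1. Tgfb1 was called there with a common sum (-0.59) and Tgfbr1 with median ratio scaling (0.76). Between ADPKD+MMPP and WT, centring turned Tgfb3 (-0.30), Tgfbr2 (0.085) and Tgfbi (0.94), and ended the calls of Fn1 (-0.11) and Thbs1 (0.78). Tgfb1 was not called there with median ratio scaling (-0.45), and Tgfb2 was called after quantile normalization (1.04), after centring (1.66) and without ADPKD+MMPP replicate 1 (0.64). The cause of these turns was not tested. The median log2 fold change of all genes between ADPKD+MMPP and ADPKD was -0.36 as deposited, -0.55 with a common sum, -0.21 with median ratio scaling and 0.10 after quantile normalization, and between ADPKD+MMPP and WT the share of called genes that were higher was 40.8%, 52.9% after quantile normalization and 57.2% after centring. The replicate numbers pair no samples in the labels, and deviations of same-numbered libraries correlated with r of 0.129, -0.00796 and 0.0137. With a replicate block, 5, 5 and 7 members were called in the 3 comparisons, and all genes called went from 3970 to 4055, 10540 to 10595 and 10984 to 11038. Where a library was left out, the lone library of its group is assumed to vary like the others. Fn1 in ADPKD+MMPP rests on about 104 to 130 reads, while exon overlap with genes on the other strand covers 2.14% to 7.6% of the exon bases of Tgfb2, Tgfb3, Fn1 and Thbs1, and strand use in counting is not given in the sources used here.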

Other observations

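The remaining marker lists, which contain none of the members, also differed between groups. Intercalated cell markers, such as the chloride and bicarbonate exchanger gene Slc26a4, summed to 284 and 291 FPKM in WT, 79.4 and 30.1 FPKM in ADPKD, and 256 and 265 FPKM in ADPKD+MMPP, with 7 of 7 called lower in ADPKD against WT and 7 of 7 called higher between ADPKD+MMPP and ADPKD. Slc26a4 itself was at 83.6 and 109, 12.4 and 2.15, and 45.3 and 45.0 FPKM. For these counts and those below, 14.2% of all genes tested were called higher and 12.5% lower in ADPKD against WT. Between ADPKD+MMPP and ADPKD, 27.9% of all genes were called higher and 43.0% lower. The marker lists were not centred by gene structure. Podocyte markers summed to 900 and 1231 FPKM in WT, 205 and 90.8 FPKM in ADPKD, and 89.7 and 87.2 FPKM in ADPKD+MMPP, with 5 of 5 called lower in ADPKD. Podxl, at 84.1 and 80.8 FPKM, made up most of the podocyte sum in ADPKD+MMPP. There 3 of the 5 genes were called lower and 0 higher against ADPKD, with a median log2 fold change of -2.24. Those of the thick limb and distal convoluted tubule summed to 1450 and 562, 611 and 184, and 203 and 203 FPKM. Umod made up most of this sum in WT (987 and 319 FPKM) and ADPKD (498 and 152 FPKM). Of the 6 genes, 0 were called higher and 4 lower in ADPKD against WT. Between ADPKD+MMPP and ADPKD, 2 were called higher and 1 lower, with a median log2 fold change of 1.13.

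Immediate early and heat shock genes that respond when tissue is dissociated were measured by a list of 15 genes. They summed to 13954 and 14388 FPKM in WT, 8273 and 6241 FPKM in ADPKD, and 15156 and 15320 FPKM in ADPKD+MMPP, with 0 called higher and 11 lower in ADPKD against WT and 9 higher and 5 lower between ADPKD+MMPP and ADPKD. Fos was at 1907 and 2120, 953 and 604, and 2228 and 2253 FPKM, while Dusp1, of the same list, was at 1041 and 979, 513 and 425, and 58.2 and 53.6 FPKM.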
